A study of Mus musculus with 4 samples.

Results

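Matricellular proteins are secreted into the extracellular matrix, where they act on cells and on other matrix proteins more than they bear load. The genes described here were a fixed set of 10: the thrombospondins Thbs1 and Thbs2, the collagen-binding glycoprotein Sparc, osteopontin (Spp1), the CCN family genes Ctgf (now Ccn2), Cyr61 (now Ccn1) and Wisp1 (now Ccn4), tenascin C (Tnc), periostin (Postn) and fibronectin (Fn1), a structural glycoprotein of the matrix. They were chosen by name, and every probe carrying 1 of these names on the array was taken. This gave 17 of the array's 41174 gene probes and 10 of its 27670 gene names. Thbs1, Fn1 and Tnc had 3 probes each, Sparc had 2, and the other 6 genes had 1 probe. A further probe, filed under a clone name that RefSeq lists as a synonym of Postn, was left out of the set. It was used where a gene's probes were averaged.

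The cells were 4TO7, a mouse mammary tumour line of the BALB/cfC3H strain. They stably carried either the empty retroviral vector pMSCV-puro (vector cells) or pMSCV with the microRNA cluster miR-23b/27b/24 (miR-23b/27b/24 cells), and both groups were grown in medium with 10% serum. Each group had 2 arrays, described by the series as transfection replicates, and the labels do not say whether a line was 1 clone or a pool. Every array carried Cy5-labelled RNA of the cells together with the same Cy3-labelled reference, a commercial pool of RNA from 11 mouse lines, so that each value is a log2 ratio of cells over reference. The mature microRNAs themselves were not analysed here.

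Between 69.9% and 74.8% of gene probes were well above background in Cy5 on an array, and 16 of the 17 matricellular probes passed the filter on dim probes. All 6 epithelial markers of a mammary tumour line were well above background on all 4 arrays, but most were much lower with the microRNA cluster. Their summed Cy5 intensity was 578186 and 488462 in vector cells against 203021 and 227491 in the cells carrying the cluster. Of the 6, 4 were called lower in the test described below. Krt8 was the exception in direction, with processed Cy5 intensities between 62016 and 98448, and it was not called. All 4 arrays lay on 1 slide and were read in 1 scan. With 2 arrays against 2, an exact permutation test of a single value cannot go below p = 0.333, so the tests below are those of limma, which borrows the spread across all genes. Their p-values measure the spread between these arrays. In RNA from a whole culture, fewer cells that express a gene and less RNA per cell cannot be told apart.

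As background, thrombospondin 1 binds CD47, CD36 and heparan sulphate proteoglycans and can release TGF-beta from its latent form. Sparc and osteopontin bind collagen and integrins respectively, and osteopontin also binds CD44. Ctgf and Cyr61 are immediate targets of the YAP and TEAD transcription factors and of TGF-beta or serum signals, and their products bind integrins. Fibronectin, tenascin C and periostin are matrix components with higher levels in wound and tumour stroma. The 3 microRNAs act by base pairing of their seed, bases 2 to 8, with messenger RNAs. Mature arms of the cluster's hairpins are printed below to show their seeds. They come from RefSeq on build GRCm38.p6, where the arms listed lie on chromosome 13, plus strand, between positions 63300492 and 63301272, and the seed is in capitals.
mmu-miR-23b-5p: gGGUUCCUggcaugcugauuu
mmu-miR-27b-5p: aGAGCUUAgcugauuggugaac
mmu-miR-27b-3p: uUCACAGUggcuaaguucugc
mmu-miR-24-1-5p: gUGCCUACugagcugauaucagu
mmu-miR-24-3p: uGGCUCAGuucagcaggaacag

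No seed was shared between these 5 arms. The other arm of the first hairpin, mmu-miR-23b-3p, was missing from the sequences used, so its seed is neither printed nor compared.

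Across the set, 2 genes rose in the miR-23b/27b/24 cells (Ctgf 3.01-fold and Sparc 2.45-fold), 1 fell (Thbs1, 3.10-fold), and 7 did not pass the test (limma, Benjamini-Hochberg adjusted p under 0.05 over all genes). The 3 called genes are 30% of the set. Over all 20513 genes tested, 1935 were called, or 9.43%, with 4.78% called higher and 4.66% called lower. The median log2 fold change was 0.38 over the 10 genes and -0.03 over all genes. In 7 of the 10 genes, or 70%, the 2 groups held separate ranges, beside 59.8% of all genes with a value on every array, so this share was near the background. The largest fitted difference, that of Spp1, was among those that did not pass, and its vector arrays lay far apart. The plot of log2 ratios by array shows that spread for each gene.

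**Figure D1:**
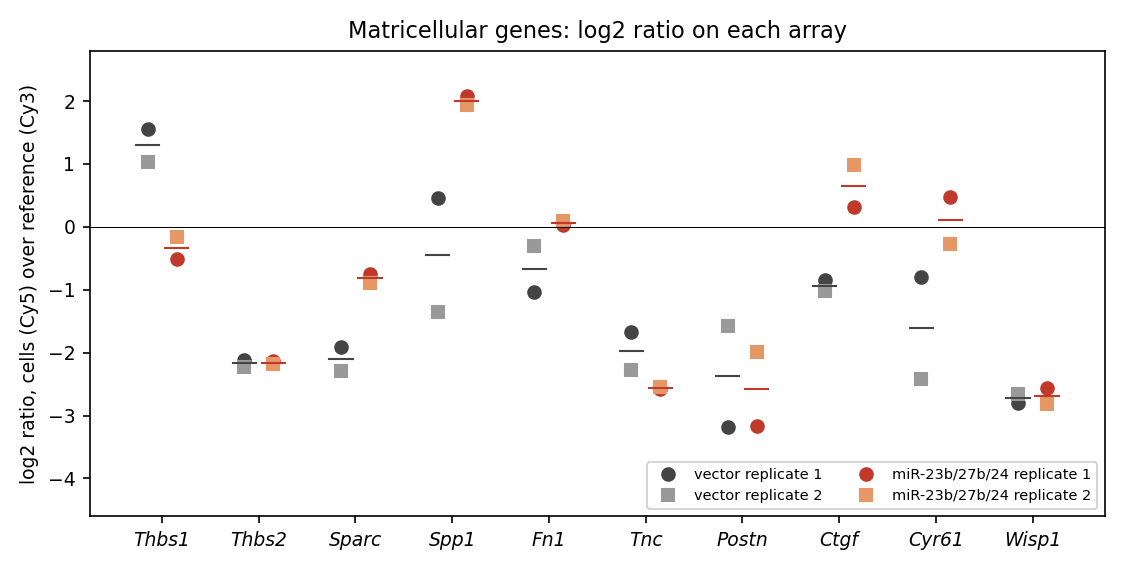
Log2 ratio of cells (Cy5) over reference (Cy3) on each of the 4 arrays for the brightest probe of each gene, with circles for replicate 1, squares for replicate 2 and short lines at the group means. The groups are far apart for Thbs1, Sparc and Ctgf, overlapping for Thbs2, Wisp1 and Postn, and the vector arrays are 1.81 apart for Spp1, 1.63 for Cyr61 and 1.61 for Postn.

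Thbs1, which encodes thrombospondin 1, fell in the miR-23b/27b/24 cells. Its brightest probe had log2 ratios of 1.56 and 1.03 in the vector cells and of -0.51 and -0.16 in the miR-23b/27b/24 cells. Both vector arrays were therefore above the reference and both miR-23b/27b/24 arrays below it. The processed Cy5 intensity was 9106 and 6693 in the vector cells against 2089 and 2621, while the Cy3 intensity of the reference lay between 2841 and 3081 on all 4 arrays. Thbs1 thus differed by -1.63 ± 0.23 in log2 (SE, 2 arrays in each group), with a 95% interval of -2.24 to -1.03 (limma, Benjamini-Hochberg adjusted p = 0.0241). Among all genes, 2.91% differed by at least as much in either direction. Thbs1 stayed lower by 1.37 to 1.89 in log2 with any array left out. It lost the call without miR-23b/27b/24 replicate 1 (adjusted p = 0.155) and without replicate 2 (adjusted p = 0.0977), where the remaining array of the group is assumed to vary like the vector arrays. With median centring in place of loess the value was -1.60 (adjusted p = 0.0573).

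Thbs1 was read by 3 probes along chromosome 2, plus strand, in the mm7 coordinates of the files. The brightest, A_52_P363951, lies at 117866887 to 117866946. The other 2 are shown because they lie upstream of it and gave smaller differences. A_52_P337086 lies at 117863442 to 117863501, 3445 bases away, and A_52_P337092 spans 181 bases from 117861824 to 117862004, 5063 bases away, so that its 60 bases are split over the genome. Whether a probe lies in coding sequence or in an untranslated region was not analysed here.
Thbs1 A_52_P337086: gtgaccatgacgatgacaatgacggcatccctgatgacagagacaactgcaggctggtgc
Thbs1 A_52_P337092: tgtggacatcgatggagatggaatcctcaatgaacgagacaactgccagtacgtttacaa

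Both upstream probes had lower values in the miR-23b/27b/24 arrays, and neither passed the test. They were also much dimmer than the brightest probe. Processed Cy5 lay between 217 and 599 for A_52_P337086 and between 123 and 344 for A_52_P337092. The offset of 50 added to both channels in the processing also makes the ratios of dim probes smaller in size. Whether position, brightness or that offset goes with the smaller differences was not tested. A_52_P337086 had log2 ratios of 1.10 and 0.53 in the vector cells and of -0.10 and -0.01 in the miR-23b/27b/24 cells, a difference of -0.87 ± 0.22 (SE, n = 2, adjusted p = 0.0716 with each probe tested separately). A_52_P337092 had 0.92 and 0.23 against 0.07 and -0.09, a difference of -0.58 ± 0.25 (adjusted p = 0.208). On all 3 probes both vector arrays lay above both miR-23b/27b/24 arrays. With the mean over a gene's probes in place of the brightest probe, Thbs1 had a log2 fold change of -1.03 (adjusted p = 0.0558). The differences of the 3 probes from each other were not tested.

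Thbs2, the close relative that is best known from stromal cells, did not pass the test. Its probe A_51_P461877 lies on chromosome 17, minus strand, spanning 12950083 to 12951346.
Thbs2 A_51_P461877: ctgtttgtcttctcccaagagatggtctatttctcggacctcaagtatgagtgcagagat

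The log2 ratios of Thbs2 were -2.12 and -2.22 in the vector cells and -2.14 and -2.18 in the miR-23b/27b/24 cells, so the groups overlapped. Their difference was 0.01 ± 0.12 in log2 (SE, n = 2, adjusted p = 0.967) with a 95% interval of -0.30 to 0.33. The processed Cy5 intensity lay between 1095 and 1216 on all arrays. Of the other thrombospondins on the array, Thbs4 and Comp did not pass the filter on dim probes. Thbs3 had log2 ratios of -0.78 and -1.37 against 0.93 and -0.12 and did not pass the test, with a log2 fold change of 1.48 ± 0.40 (adjusted p = 0.0905). Without vector replicate 1 it was called (log2 1.77, adjusted p = 0.0464).

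Sparc, also called osteonectin, rose in the miR-23b/27b/24 cells. The log2 ratio of its brightest probe was -1.91 and -2.30 in the vector cells and -0.74 and -0.89 in the miR-23b/27b/24 cells. All 4 arrays were thus below the reference, with the miR-23b/27b/24 arrays the nearer to it. The processed Cy5 intensity rose from 14034 and 11442 to 30344 and 25997, with the reference between 49746 and 55979. Sparc differed by 1.29 ± 0.18 in log2 (SE, n = 2, 95% interval 0.83 to 1.75, limma adjusted p = 0.0218). Its second probe, A_51_P431087, 1436 bases away on chromosome 11, had log2 ratios of -2.31 and -2.77 against -1.28 and -1.38 and was called too, with 1.20 ± 0.19 (adjusted p = 0.0271). The call was lost without miR-23b/27b/24 replicate 1 (log2 1.22, adjusted p = 0.162) or replicate 2 (1.36, adjusted p = 0.119). It was also lost when all local backgrounds were used as measured (1.27, adjusted p = 0.0538) and with median centring (1.27, adjusted p = 0.0789).

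The sequence of the brightest Sparc probe and the 250 bases before the gene's start are shown because Sparc was the called gene for which both could be read. The probe A_52_P101852 spans 55352704 to 55355361 on chromosome 11, minus strand (mm7). The promoter is chr11:55420081-55420330, minus strand, from RefSeq on build GRCm38.p6.
Sparc A_52_P101852: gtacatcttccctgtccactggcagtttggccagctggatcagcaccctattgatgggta
Sparc promoter: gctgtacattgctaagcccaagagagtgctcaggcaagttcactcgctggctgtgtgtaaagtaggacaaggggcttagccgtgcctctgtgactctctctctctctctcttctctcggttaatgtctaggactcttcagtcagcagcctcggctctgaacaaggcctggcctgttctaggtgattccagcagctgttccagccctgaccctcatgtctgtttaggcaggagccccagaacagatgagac

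These 250 bases, searched on both strands, held none of 4 motifs: the TEAD motif GGAATG, the AP-1 motif TGANTCA, the CArG box of serum response factor, and TATAAA. Among 32851 RefSeq promoters of the same length, 12.6% held GGAATG, 6.75% TGANTCA, 1.47% a CArG box and 12.4% TATAAA. Among 7 relatives of Sparc, 5 were tested and 1 was called higher. This was Smoc1, a secreted calcium-binding protein of basement membranes, which rose by 1.22 ± 0.14 in log2 (2.33-fold, adjusted p = 0.0158). Its size depended on the processing, with log2 values between 0.28 and 2.21 over the alternatives. The median of the 5 relatives was 0.03.

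Spp1 encodes osteopontin, a secreted phosphoprotein that tumour cells and macrophages can make in large amounts. Its single probe, A_51_P358765 on chromosome 5, plus strand, 103631152 to 103631211, was printed in 10 spots per array. The mean log2 ratio was 0.46 and -1.35 in the vector cells and 2.08 and 1.93 in the miR-23b/27b/24 cells. Both miR-23b/27b/24 arrays were above both vector arrays, but the vector arrays differed by 1.81, or 3.50-fold, and only 0.337% of genes had a larger gap there. The fitted log2 difference was 2.45 ± 0.59 (SE, n = 2, 95% interval 0.91 to 4.00), a 5.47-fold difference, and it did not pass the test (limma adjusted p = 0.0720). The value was 3.35 (adjusted p = 0.00133) without vector replicate 1 and 1.55 (adjusted p = 0.00683) without vector replicate 2. Over all alternatives the adjusted p ran from 0.00133 to 0.372.

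The repeated Spp1 spots of an array lay close together. The SD of the log2 ratio over the spots used was between 0.0190 and 0.131 on an array, and between 5 and 10 of the 10 spots were used. No Spp1 spot was marked as saturated. Part of the ratio's difference lay in the reference channel. The mean processed Cy3 intensity of Spp1 was 316442 and 570661 on the vector arrays and 194942 and 182216 on the miR-23b/27b/24 arrays, although the same reference RNA is labelled for every array. In Cy5 the values were 375042 and 199805 against 783530 and 626549, which also do not overlap. Each channel was also fitted by itself after quantile normalisation between arrays, which gives all arrays 1 distribution, so the brightest probes can differ less there than in the processed intensities. Fitted in Cy5 alone, the log2 difference of Spp1 was 0.88 ± 0.55 (adjusted p = 0.372), and in Cy3 alone it was -0.88 ± 0.07 (adjusted p = 0.0570), a size that 0.166% of genes reached in Cy3. What moved the reference signal was not tested. Among the other 9 genes the largest Cy3 difference was 0.11 in size, that of Cyr61.

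**Figure D2:**
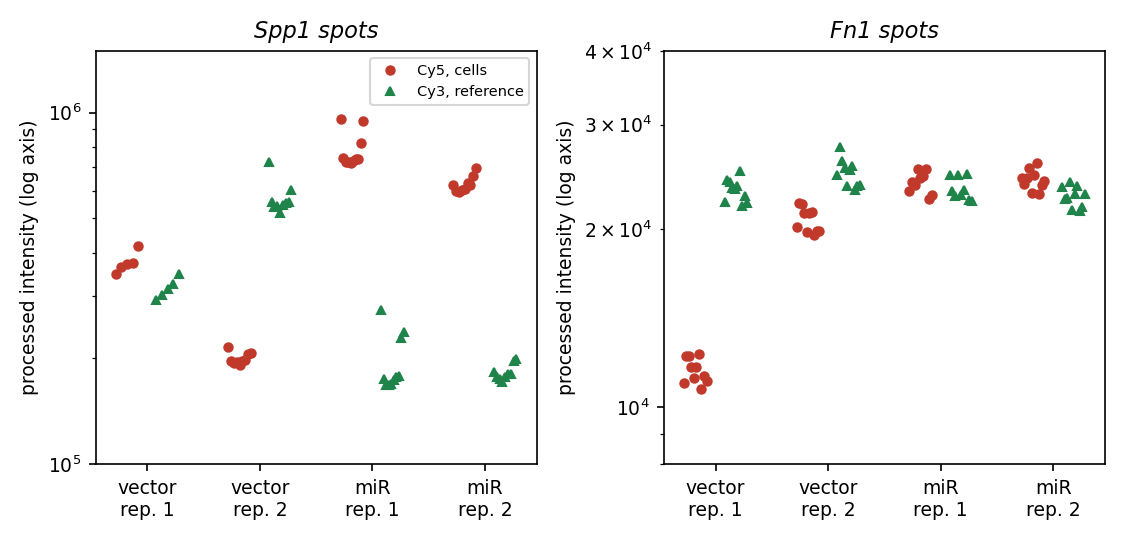
Processed intensity of every used spot of the Spp1 probe (left) and the brightest Fn1 probe (right) on a log axis, with circles for Cy5 (cells) and triangles for Cy3 (reference). For Spp1 the Cy3 spots of vector replicate 2 average 570661 and those of the miR-23b/27b/24 arrays 194942 and 182216, while for Fn1 the Cy3 spots lie between 21453 and 27547 on every array.

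**Figure D3:**
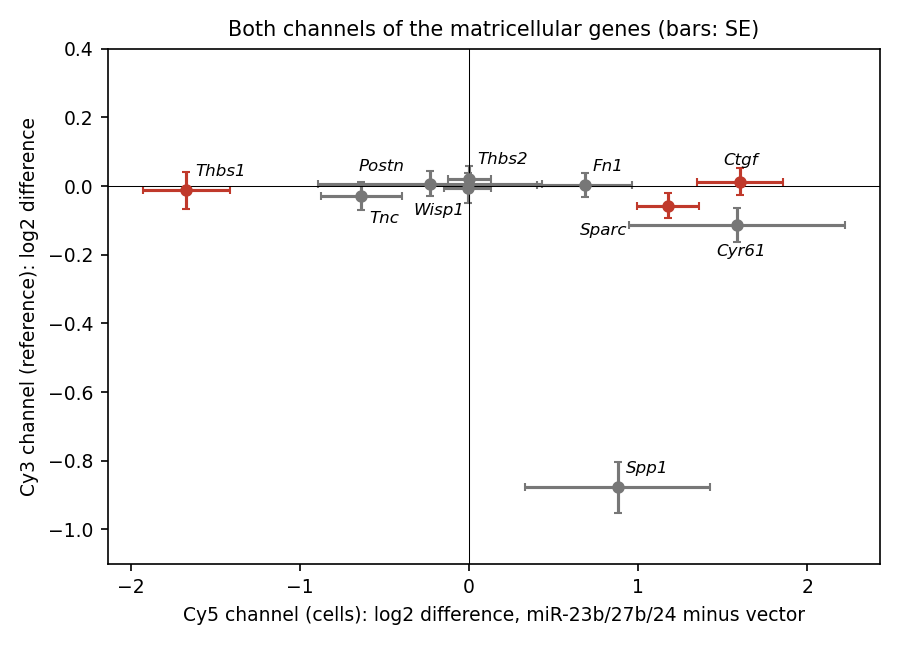
Fitted log2 difference between the groups in the Cy5 channel (cells, horizontal) against that in the Cy3 channel (reference, vertical), each channel quantile-normalised between arrays, with bars for the SE and red for the 3 called genes. Spp1 is the only gene of the 10 that is far from 0 in Cy3, at -0.88.

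The 3 called genes were also tested in each channel by itself. In Cy5 alone Thbs1 had a log2 difference of -1.67 (adjusted p = 0.0292), Sparc 1.18 (adjusted p = 0.0300) and Ctgf 1.60 (adjusted p = 0.0305), each called without the reference. In Cy3 alone none of the 10 genes was called. Across all genes limma called 22 in Cy3, with 1705 at an unadjusted p under 0.05.

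Among 8 relatives of tenascin C, periostin and osteopontin, 4 were tested and 1 was called. Dmp1, which encodes a phosphoprotein of mineralised matrix from the same family as osteopontin, had log2 ratios of 0.31 and 0.27 in the vector cells and of 2.70 and 3.67 in the miR-23b/27b/24 cells. It rose by 2.90 ± 0.33 in log2 (7.46-fold, adjusted p = 0.0150) and was called under all 19 alternatives, with log2 values between 2.41 and 3.43. The median of the 4 tested relatives was 0.45.

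In the CCN family, Ctgf rose, Cyr61 was higher without passing the test, and the arrays of Wisp1 overlapped between the groups. Ctgf, read by A_51_P157042 on chromosome 10, plus strand, 24349402 to 24349461, had log2 ratios of -0.85 and -1.02 in the vector cells and of 0.32 and 0.99 in the miR-23b/27b/24 cells. It went from below the reference on both vector arrays to above it on both others. The processed Cy5 intensity was 9702 and 10130 against 23036 and 35990. Ctgf differed by 1.59 ± 0.25 in log2 (SE, n = 2, 95% interval 0.94 to 2.24, limma adjusted p = 0.0301). The call was lost without miR-23b/27b/24 replicate 1 (1.92, adjusted p = 0.0548) or replicate 2 (1.25, adjusted p = 0.0994), when all local backgrounds were used as measured (1.57, adjusted p = 0.0642) and with median centring (1.64, adjusted p = 0.0584).

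Cyr61 was read by A_51_P252859 on chromosome 3, minus strand, 145544387 to 145544446. Its log2 ratios were -0.79 and -2.42 in the vector cells and 0.48 and -0.27 in the miR-23b/27b/24 cells. Each miR-23b/27b/24 array was above each vector array, but the vector arrays differed 3.09-fold, a gap exceeded by 0.590% of genes. In Cy5 the intensity was 18027 and 5726 against 38601 and 22091. The log2 fold change was 1.71 ± 0.59 (SE, n = 2, 95% interval 0.18 to 3.24), which did not pass the test (adjusted p = 0.146). Vector replicate 2 held the low value: without it the log2 fold change was 0.89 (adjusted p = 0.148), and without vector replicate 1 it was 2.52 (adjusted p = 0.00991). The difference between Ctgf and Cyr61 was not tested.

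The 250 bases before the start of Cyr61, chr3:145649986-145650235, minus strand (RefSeq, GRCm38.p6), are shown because the gene is a standard reporter of TEAD activity. Capitals mark the reverse complement of GGAATG, whose site begins 103 bases before the start, and TATAAA, 25 bases before it.
Cyr61 promoter: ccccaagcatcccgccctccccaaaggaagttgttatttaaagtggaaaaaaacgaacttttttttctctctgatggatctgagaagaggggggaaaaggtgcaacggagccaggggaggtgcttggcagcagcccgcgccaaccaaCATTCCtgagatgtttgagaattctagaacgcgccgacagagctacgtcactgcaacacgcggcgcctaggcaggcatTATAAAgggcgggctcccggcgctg

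Neither TGANTCA nor a CArG box was found in these letters.

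Wisp1, a Wnt-induced CCN gene read by A_51_P220343 on chromosome 15, plus strand, 67006754 to 67006813, had log2 ratios of -2.80 and -2.66 in the vector cells and -2.57 and -2.82 in the miR-23b/27b/24 cells. The groups overlapped, and the log2 fold change was 0.03 ± 0.15 (adjusted p = 0.912, 95% interval -0.35 to 0.42). Of the other 3 CCN genes, 2 were tested and 0 called. Nov (now Ccn3) had log2 ratios of -1.78 and -2.76 against -0.03 and -1.34, a difference of 1.59 ± 0.54 (adjusted p = 0.143). Wisp2 (now Ccn5) had -1.25 and -1.93 against -0.36 and -0.71, a difference of 1.06 ± 0.27 (adjusted p = 0.0805), which was called without vector replicate 1 (1.40, adjusted p = 0.0113). In both, every miR-23b/27b/24 array was above every vector array, and vector replicate 2 was the lowest array, as it was for Cyr61 and Spp1.

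Fibronectin, tenascin C and periostin, the matrix scaffold genes of the set, did not pass the test. Fn1 had 3 probes on chromosome 1, minus strand, which are shown because they read different stretches of a long, alternatively spliced transcript and gave different values. A_51_P100856, printed in 10 spots, spans 71832689 to 71834926, A_52_P11817 lies at 71839394 to 71839453, 6705 bases from it, and A_52_P299974 spans 71869155 to 71869913, 36466 bases from it.
Fn1 A_51_P100856: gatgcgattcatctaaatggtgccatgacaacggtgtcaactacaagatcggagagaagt
Fn1 A_52_P11817: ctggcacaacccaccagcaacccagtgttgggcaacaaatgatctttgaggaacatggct
Fn1 A_52_P299974: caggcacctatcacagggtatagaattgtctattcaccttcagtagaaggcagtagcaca

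The brightest Fn1 probe, A_51_P100856, had log2 ratios of -1.04 and -0.31 in the vector cells and of 0.04 and 0.09 in the miR-23b/27b/24 cells. The lone low array was vector replicate 1, where the Cy5 intensity was 11519 against 20709, 23954 and 24216 on the others. The log2 fold change was 0.74 ± 0.26 (SE, n = 2, 95% interval 0.05 to 1.42, adjusted p = 0.158). Without vector replicate 1 it was 0.37 (adjusted p = 0.123), and without vector replicate 2 it was 1.10 (adjusted p = 0.0127). The spread over the spots was small, with an SD of the log2 ratio between 0.0257 and 0.0508 on an array. That SD is technical, within an array, and the 2 vector arrays were 0.73 apart. A_52_P11817 showed the same order of arrays, -1.08 and -0.25 against 0.06 and 0.25, with a difference of 0.82 ± 0.29 (adjusted p = 0.146). A_52_P299974 had -0.28 and -0.19 against -0.08 and -0.13, a difference of 0.13 ± 0.12 (adjusted p = 0.547). That probe was dim, with Cy5 intensities between 501 and 807. Whether the Fn1 probes differ from each other was not tested.

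Tnc, an adhesion-modulating hexameric glycoprotein, was read by 3 probes on chromosome 4, minus strand. A_51_P291438, at 63394034 to 63394094, had log2 ratios of -1.67 and -2.28 in the vector cells and of -2.58 and -2.54 in the miR-23b/27b/24 cells. The groups did not overlap, and Cy5 was 996 and 738 against 485 and 513. The log2 fold change was -0.58 ± 0.23 (SE, n = 2, 95% interval -1.18 to 0.01, adjusted p = 0.185), and without vector replicate 2 it was -0.89 (adjusted p = 0.0212). A_51_P324992, at 63418540 to 63418599, had Cy5 intensities of 80.6 and 89.9 against 31.2 and 30.1 and passed the filter through the vector arrays alone, since neither miR-23b/27b/24 array was well above background. For this probe Cy5, normalised between arrays, gives only a bound, with the vector mean at least 1.35-fold higher. That bound was not tested. The fitted log2 fold change of -0.27 did not pass the test (adjusted p = 0.218). It rests on those dim arrays and cannot show the size of the difference. A_52_P355169, at 63446910 to 63447673, was not well above background on any array.

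Postn, a fasciclin-domain protein of stroma and bone, varied widely within both groups. Its probe, A_51_P489192 on chromosome 3, plus strand, 54519770 to 54519829, had log2 ratios of -3.18 and -1.57 in the vector cells and of -3.16 and -1.99 in the miR-23b/27b/24 cells. In each group replicate 1 was the lower array, with gaps of 1.61 and 1.17, and only 0.624% of genes had a larger gap between the vector arrays. Cy5 was 225 and 1070 against 233 and 664. The log2 fold change was -0.20 ± 0.65 (adjusted p = 0.881), with a 95% interval of -1.89 to 1.49 that holds large changes in either direction. For all genes the median gap between the arrays of a group was 0.192 for vector and 0.129 for miR-23b/27b/24. The plot of all probes sets the differences and their SE, not the 95% intervals, side by side.

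**Figure D4:**
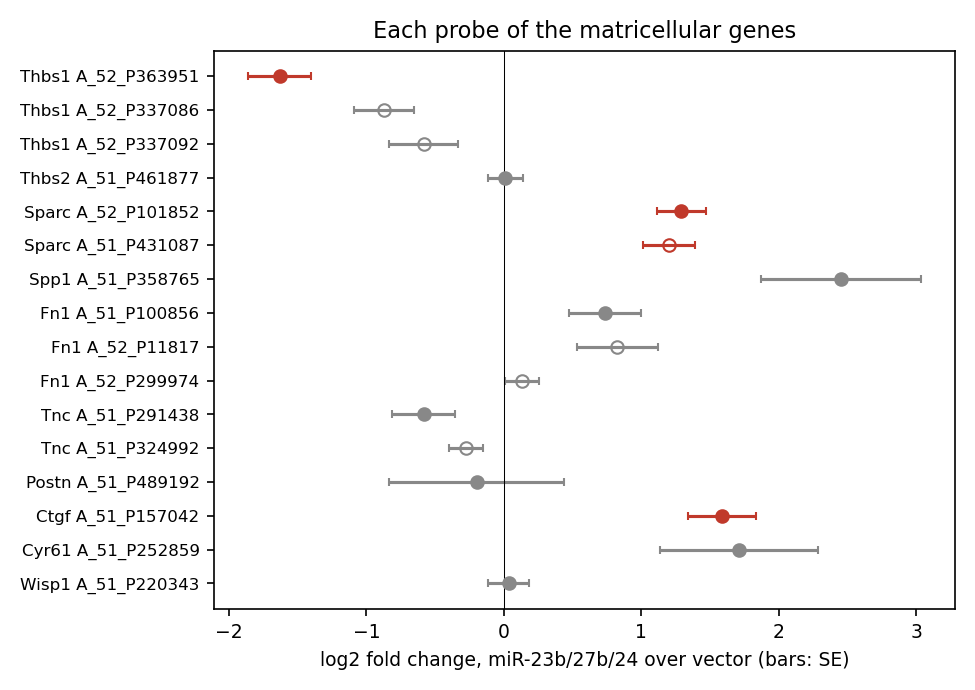
Log2 fold change (miR-23b/27b/24 over vector) with its SE for the 16 matricellular probes that passed the filter, with filled circles for the brightest probe of a gene and red for an adjusted p under 0.05. All 3 Thbs1 probes lie below 0, both Sparc probes above 1, and the bars of Spp1, Cyr61 and Postn are the widest. The point of the dim Tnc probe A_51_P324992 rests on miR-23b/27b/24 arrays that were not well above background.

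The surroundings of these genes were described by further lists from the same test: other matrix glycoproteins, receptors, regulators and targets of YAP and TEAD, targets of TGF-beta, and enzymes of matrix crosslinking. Of 12 fibulins and other matrix glycoproteins, 10 were tested, 2 rose and 1 fell, and the median log2 fold change was -0.06. Efemp2, needed for elastic fibre assembly, rose 2.24-fold (log2 1.16, adjusted p = 0.0282). Mfge8, an integrin-binding milk fat globule protein, rose 1.93-fold (log2 0.95, adjusted p = 0.0385). Fbln2, a fibulin of basement membranes, fell 2.77-fold (log2 -1.47, adjusted p = 0.0405). Members of this group thus changed in both directions. Beside the counts of this list and of the others, 9.43% of all tested genes were called, 4.78% higher and 4.66% lower.

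Of 22 cell surface receptors and partners of the matricellular proteins, 21 were tested, 2 rose and 1 fell, with a median of -0.22. Sdc4, the heparan sulphate proteoglycan syndecan 4 that joins fibronectin adhesion, rose 2.90-fold (log2 1.53 ± 0.20, adjusted p = 0.0203). Calr, which encodes calreticulin, a chaperone that at the cell surface is a partner for thrombospondin 1, rose 3.00-fold (log2 1.59 ± 0.20, adjusted p = 0.0177). Itgb6, the beta chain of the TGF-beta-activating integrin of epithelia, fell 2.45-fold (log2 -1.29 ± 0.14, adjusted p = 0.0135), and 2 of its 3 probes had that sign. The thrombospondin receptors Cd47 and Cd36 had log2 fold changes of -0.32 (adjusted p = 0.265) and -0.22 (adjusted p = 0.371). The osteopontin receptor Cd44 had 0.33 (adjusted p = 0.380), with 2 of its 3 probes of that sign. These 3 receptors were picked for their ligands after their values were seen.

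All 16 regulators of YAP and TEAD activity were tested, 3 rose and 1 fell, and the median was 0.15. Vgll3, a cofactor of TEAD, fell 3.48-fold (log2 -1.80 ± 0.18, adjusted p = 0.0112). Vgll4, another TEAD cofactor that competes with YAP, rose 2.04-fold (adjusted p = 0.0425), the kinase adaptor Sav1 1.97-fold (adjusted p = 0.0294) and the transcription factor Tead4 1.72-fold (adjusted p = 0.0461). Vgll4 and Tead4 were also not called without vector replicate 2 (0.87, adjusted p = 0.0517 and 0.80, adjusted p = 0.0539). Of 19 targets of YAP and TEAD other than Ctgf and Cyr61, 18 were tested, 0 rose and 4 fell, with a median of -0.32. The 4 were Tgfb2, a TGF-beta ligand (3.01-fold, adjusted p = 0.0433), the phosphatase Ptpn21 (2.41-fold, adjusted p = 0.00925), the membrane protein Myof (2.40-fold, adjusted p = 0.0336) and the LIM protein Ajuba (1.64-fold, adjusted p = 0.0382). The called targets of this list thus fell where Ctgf rose. The share called lower among all genes was 4.66%.

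Of 13 TGF-beta targets, all tested, 0 rose and 3 fell, and the median was -0.13. Among all genes 4.66% were called lower. Among those that fell, Skil, a repressor of Smad signalling, fell 2.61-fold (adjusted p = 0.0212), and the transcription factor Bhlhe40 fell 1.98-fold (adjusted p = 0.0329). Of 12 enzymes and chaperones of matrix crosslinking and assembly, all tested, 2 rose and 0 fell, with a median of -0.00. They were Tgm2, a transglutaminase that crosslinks fibronectin (2.59-fold, log2 1.38 ± 0.12, adjusted p = 0.00825), and Plod1, a collagen lysyl hydroxylase (1.89-fold, adjusted p = 0.0210). The plot of the lists shows called genes on both sides of 0.

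**Figure D5:**
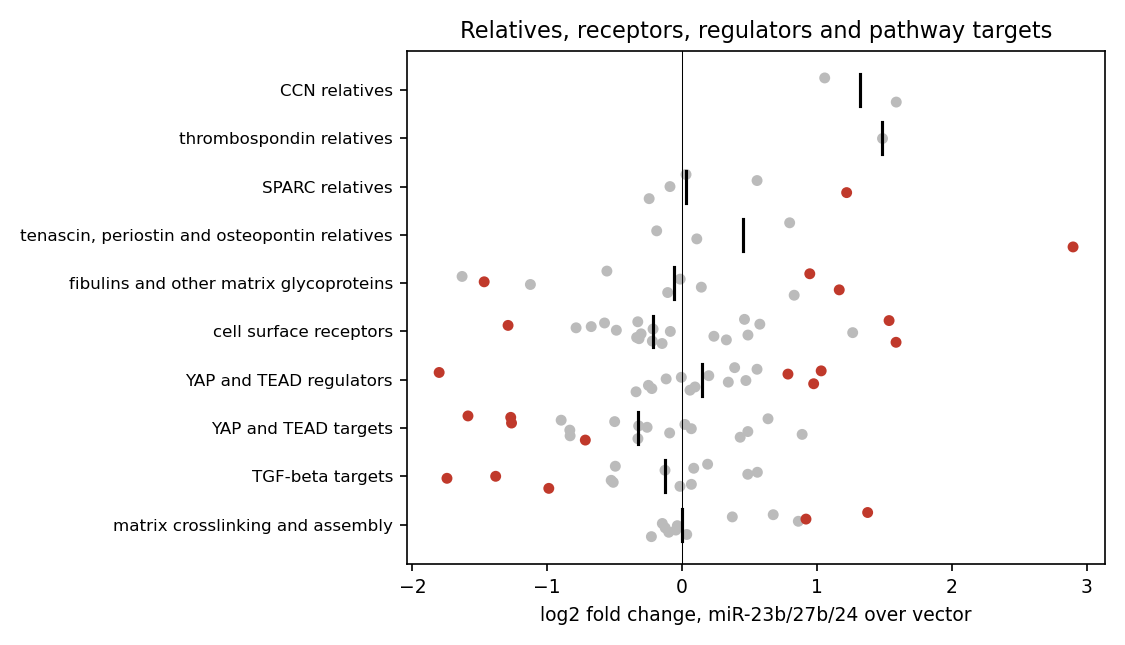
Log2 fold change (miR-23b/27b/24 over vector) of each tested gene of 10 lists around the matricellular genes, with red for an adjusted p under 0.05 and a black bar at each list's median. The called YAP and TEAD targets and TGF-beta targets all lie below 0, and Dmp1 lies farthest to the right at 2.90.

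Markers of cell types were read beside these values. Of 6 epithelial markers, 4 fell, while Krt18 (log2 -1.40, adjusted p = 0.0647) and Krt8 (log2 0.30, adjusted p = 0.606) were not called. Krt7 fell 22.5-fold (adjusted p = 0.00176), Epcam 12.2-fold (adjusted p = 0.00222), Cdh1 7.74-fold (adjusted p = 0.0299) and Krt14 2.36-fold (adjusted p = 0.0157). Cdh1 was not called with the authors' deposited values (-2.06 in log2, adjusted p = 0.0610) or with measured local backgrounds (-2.17, adjusted p = 0.138), and Krt7 was -6.87 in Cy5 alone. The Cy3 reference signal also differed between the groups for Krt7, at 16094 and 13632 on the vector arrays against 2831 and 2582. For Cdh1 it was 459 and 465 against 72.5 and 83.2. For Epcam it lay between 4222 and 5386 on all arrays. What moved these reference signals was not tested. The summed Cy5 intensity of the 6 was 578186 and 488462 in vector cells against 203021 and 227491. Of 9 mesenchymal and fibroblast markers, 8 were tested and 0 called, and Fap was not well above background on any array. The 2 with the smallest p were Dcn, at 0.39 (adjusted p = 0.152), and Pdgfra, at 1.23 (adjusted p = 0.101), which was called without vector replicate 1 (1.75, adjusted p = 0.00432) and without vector replicate 2 (0.72, adjusted p = 0.0470). The summed intensity of that list was 570474 and 226628 against 796138 and 443523, in which S100a4 alone had 313004 and 67761 against 568272 and 257265. Vector replicate 2 was thus the lowest array for this sum, as it was for Spp1 and Cyr61. The Cy3 reference signal of S100a4 was 237892 and 453096 against 173416 and 278059, and that of Vim 214880 and 334234 against 258836 and 268685. In both, vector replicate 2 was the highest array in Cy3, as it was for Spp1. For Cyr61, Cy3 lay between 26644 and 30598. The source of this reference shift was not tested. S100a4 and Vim were singled out after their values were seen.

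The leukocyte markers summed to 10976 and 9337 against 10827 and 8602. Of these 7 markers, 6 were well above background on all arrays, and Itgam was not on any. The pan-leukocyte gene Ptprc lay between 67.7 and 75.8, and Lyz2 between 1730 and 2351. Of the 6 tested, only Cd68 was called, 3.21-fold lower (adjusted p = 0.00676), at 3819 and 3259 against 1169 and 993. Cd14 had 4881 and 3035 against 7016 and 5264 (log2 0.70, adjusted p = 0.200). The sums thus hold a lower Cd68 beside a higher Cd14 that was not called. Cd14 and Lyz2 were singled out after their values were seen. The endothelial markers summed to between 493 and 624 on an array and 0 of the 4 tested were called (Tek -0.11, adjusted p = 0.597, and Vwf -0.17, adjusted p = 0.481). Of 5 myoepithelial markers only Acta2, smooth muscle actin, was called, 1.93-fold higher (adjusted p = 0.0205), with 1 of its 4 probes of that sign, and the list summed to 15053 and 15461 against 27453 and 27429. The part of these marker changes in the matricellular values was not tested.

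The number of called list genes changed with the array left out. With 1 array of a group left out, the spread between arrays comes from the other group alone. Over all genes, the SD of the gap between the 2 arrays of a group was 0.413 for vector and 0.256 for miR-23b/27b/24. The counts that follow therefore cannot show whether a call depends on a single array. Of 27 called genes over all lists, markers included, 4 were called without miR-23b/27b/24 replicate 1 and 4 without replicate 2, which were Dmp1, Krt7, Epcam and Cdh1 both times. Without vector replicate 1 the count was 48. Of the 19 alternatives, Ajuba lost the call under 9 (adjusted p = 0.0734 with the authors' deposited values), Mfge8 under 7 (adjusted p = 0.0539 with those values), Vgll4 and Tead4 under 6 each and Myof under 5. The other called genes lost it under 2 to 4 alternatives, except Dmp1, Krt7 and Epcam, which lost it under 0.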

How the data were processed

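Per the labels, Cy5 marked the cells' RNA and Cy3 the reference RNA on all 4 arrays, with no dye swap. Intensities per spot (mean signal, local background, processed signal) and a log10 ratio of Cy5 over Cy3 come from Agilent Feature Extraction 9.5.3.1, per the file headers. The log2 values deposited by the authors matched that ratio, turned to log2 and with each probe's median over the arrays taken off, to within 0.001 in 87.5% to 88.0% of cases. Their direction was Cy5 over Cy3, and the column medians were 0.0133, -0.0172, 0.0221 and -0.0149. They were made with software not given in the sources used here.

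Mean signals were corrected with normexp (offset 50), after local backgrounds marked as outliers, 1782 to 1976 per array in Cy5, were replaced by the array's median, and normalised by loess with weight 0 for control spots (R 4.3.3, limma 3.58.1). Spots marked as outliers were dropped, and a probe's remaining spots averaged. Probes were named through a RefSeq table of GRCm38.p6 (22951 by accession, 6659 by symbol, 3109 by synonym, 8455 kept their name). A probe was kept if its Cy5 signal was well above background on both arrays of either group (30077 probes, 20515 genes, 20513 with values in both groups), and the brightest probe stood for a gene. The test was limma's moderated one (lmFit, eBayes, with 2 residual and 2.83 prior degrees of freedom). P-values were adjusted by Benjamini-Hochberg over all genes. The script was tested on simulated data. The genes, lists and settings were chosen with earlier results of these data known, and the fits of single probes and of the Cy3 channel (quantile-normalised between arrays, as was Cy5 alone) were added after seeing the data. Named genes were all members, up to 4 called genes per list by size, or the 2 with the smallest p. 1 result that this rule names is not reported here. The number of arrays limits the precision.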

Additional observations from a re-analysis of the deposited data

How the results depend on the processing

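Across the 19 alternatives, the 10 genes gave 190 values: 157 kept their direction and side of the threshold, 12 lost the call, 9 gained it and 12 changed sign. No other gene named by the rule changed sign. Cd47, Cd36, Cd44, S100a4, Vim, Krt8, Krt18, Ptprc, Cd14 and Lyz2 were not run under the alternatives. Main counts were 3 called members (2 higher, 1 lower), 1935 called genes (980 higher, 955 lower) and 27 called list genes. With every local background as measured these were 1 member (0 higher), 635 genes (267 higher, 368 lower) and 15 list genes. Median centring gave 0 members (0 higher, 0 lower), 1263 genes (601 lower) and 16 list genes, and the mean over a gene's probes gave 0 members lower. Leaving out 1 array gave 0 to 6 members (0 to 4 higher, 0 to 2 lower), 222 to 4592 genes (107 to 2224 higher, 115 to 2368 lower) and 4 to 48 list genes. Leaving out an array leaves 3 arrays in the fit. The cause of the other shifts was not tested. Over all genes the correlation of same-numbered deviations was 0.0464, and the main test had no replicate block. That value cannot show whether single genes share an effect of the replicate number. A replicate block gave 5 members (4 higher), adding Spp1 (adjusted p = 0.0432) and Cyr61 (adjusted p = 0.0336). Outside the 10 genes it added Nov (Ccn3, adjusted p = 0.0165), Wisp2 (Ccn5, adjusted p = 0.0365) and Thbs3 (adjusted p = 0.023).

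Sign changes touched Wisp1 and Thbs2, whose main values were near 0, and Postn, whose arrays lay far apart within both groups. Wisp1 was -0.39 with measured backgrounds, -0.0078 in Cy5 alone and, leaving out 1 array, between -0.0938 and 0.162. Thbs2 was -0.31 with measured backgrounds and -0.0190 with loess on the processed signals. It was -0.0154 for both the scanner's log ratio and the authors' values, and between -0.0420 and 0.0641 leaving out 1 array. Postn ranged from -1.004 to 0.61 leaving out 1 array and was -1.07 with measured backgrounds. Spp1 passed the test with an offset of 10 (2.44, adjusted p = 0.0484) and with loess on the processed signals (2.57, adjusted p = 0.0497). Slide and scan could not be a block, since all arrays share them.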
